A study of Mus musculus with 11 samples.

Results

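The SA2 peaks of mouse cells without SA1 were set against the positions of the cohesin ring in the same cells, to see how far the SA subunit left in them lay where the ring lay. The members were 6352 SA2 peaks and 50287 ring positions. A ring position was any stretch covered by an SMC1 or an SMC3 peak, made by merging the 47003 SMC1 peaks and the 34802 SMC3 peaks of SA1-null cells wherever they overlapped or touched. All 10 lists of the series together held 163094 intervals. An SA2 peak was counted at a ring position when they shared 1 bp or more. Positions are given on mm9.

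The study mapped cohesin subunits by chromatin immunoprecipitation and sequencing (ChIP-seq), in which DNA bound by a protein is recovered with an antibody and stretches with more reads than input DNA are called as peaks. The cells were mouse embryonic fibroblasts, primary cells taken from embryos at stage E12.5, of strain C57BL/6 x 129 Sv, and were left untreated. SA1-null cells gave 1 SA2 library, 2 SMC1 libraries that share 1 list, 1 SMC3 library and 1 SA1 library, while wild-type cells of the same strain and stage gave 1 library each for SA1, SA2, SMC1 and SMC3. The 2 input libraries pooled DNA of both genotypes. The labels do not describe the null allele, the sex of the embryos or whether libraries came from separate embryos. Peak lists hold no expression values, so the cell type was not checked against its markers, but the SA1 antibody served as a check of the genotype: it gave 177 peaks in SA1-null cells and 26602 in wild-type cells.

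Cohesin is a ring of SMC1, SMC3 and a kleisin that embraces DNA, holds sister chromatids together and forms chromatin loops. In somatic vertebrate cells each ring binds an SA subunit, either SA1 or SA2 (STAG1 or STAG2), which takes part in loading onto DNA and in the contact with CTCF, the zinc finger protein at which many rings halt along chromosome arms. In cells without SA1, SA2 is the remaining SA subunit of somatic rings. SMC1 and SMC3 are core parts of every ring, so their peaks mark ring positions whichever SA subunit is bound.

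Most SA2 peaks of SA1-null cells lay on the ring. A ring position was overlapped by 5644 of the 6352 SA2 peaks, or 88.9% (95% Wilson interval 88.1 to 89.6%). SMC1 and SMC3 were both called at 5472 of the SA2 peaks (86.1%), SMC1 alone at 129 (2.03%), SMC3 alone at 43 (0.677%) and neither at 708 (11.1%). By length, 86.1% of the bases in SA2 peaks were inside ring positions, which covered 33.0 Mb or 1.28% of the span between the outermost intervals of each chromosome. Intervals called without a cohesin antibody, or with the SA1 antibody where SA1 was missing, were rarely on the ring. The share was 2.52% of 436 intervals for the input that had served for SA2. It was 6.24% of 417 for the input that had served for SMC1 and SMC3, and 1.69% of 177 for SA1 in SA1-null cells. Ring peaks were called as stretches above input, so stretches rich in input reads are less likely to be among them. The shares of input intervals are therefore not a measure of chance overlap. The 88.9% depends on the ring lists used. With the SMC1 and SMC3 lists each shortened to their 6352 widest peaks, 29.6% of SA2 peaks lay on the ring. Shortening can only lower the share, and it was done by width, so list length and peak width were not told apart.

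In the other direction, a minority of ring positions had an SA2 peak. SA2 was called at 5633 of 50287 ring positions, or 11.2% (interval 10.9 to 11.5%), and SA2 peaks covered 8.95% of the bases in ring positions. The share depended on which subunits were called. Where SMC1 and SMC3 were both called, 5461 of 30685 positions had SA2 (17.8%, interval 17.4 to 18.2%). Where SMC1 was called alone, 129 of 15700 did (0.822%, interval 0.692 to 0.975%), and where SMC3 was called alone, 43 of 3902 did (1.10%, interval 0.819 to 1.48%). The intervals of the last 2 classes overlapped each other and lay far below that of the first. Positions with both subunits made up 61.0% of ring positions and 96.9% of those with SA2. The SA2 list was much shorter than either ring list and sequencing depth is unknown, so the lack of an SA2 call at a ring position does not show that SA2 was missing there. In the widest 50% of each list, SA2 was at 3.84% of positions with SMC1 alone and 6.80% of those with SMC3 alone, still below the 14.8% of those with both. That cut redefined the classes, since a position whose second subunit was trimmed away then counted as having 1 subunit. Positions with SA2 went from 129 to 385 for SMC1 alone and from 43 to 276 for SMC3 alone.

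Ring positions with SA2 nearly all had a peak in the full wild-type SA1 list, a share that fell when that list was cut to its widest peaks. A wild-type SA1 peak was present at 5561 of the 5633 ring positions with SA2 (98.7%, interval 98.4 to 99.0%), against 16288 of the 44654 without SA2 (36.5%, interval 36.0 to 36.9%). With the wild-type SA1 list shortened to its 6352 widest peaks, 2689 of the 5633 had one (47.7%). Such a difference was not particular to SA1. Wild-type SMC1 was present at 94.4% of ring positions with SA2 and 38.9% of those without. For wild-type SMC3 the shares were 84.3% and 23.4%, and for wild-type SA2 50.1% and 5.61%. Read from the side of SA1, SA2 was called at 25.5% (interval 24.9 to 26.0%) of the 21849 ring positions with a wild-type SA1 peak and at 0.253% (interval 0.201 to 0.319%) of the 28438 without one, 72 positions. The difference was present in each ring class. Among positions with both SMC subunits the shares were 27.9% of 19326 with wild-type SA1 and 0.555% of 11359 without. Among positions with SMC1 alone they were 6.38% of 1896 and 0.0580% of 13804, and among positions with SMC3 alone 6.70% of 627 and 0.0305% of 3275. At positions with wild-type SA1, calling of both ring subunits still went with a higher SA2 share than calling of a single subunit. In the widest 50% of each list the shares were 23.2% with wild-type SA1 and 2.34% without. With the shortened wild-type SA1 list they were 44.7% and 6.65%. Both cuts put positions whose wild-type SA1 peak was trimmed away into the class without one. That class then held 416 and 2944 positions with SA2, against 72 with the full lists.

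**Figure D1:**
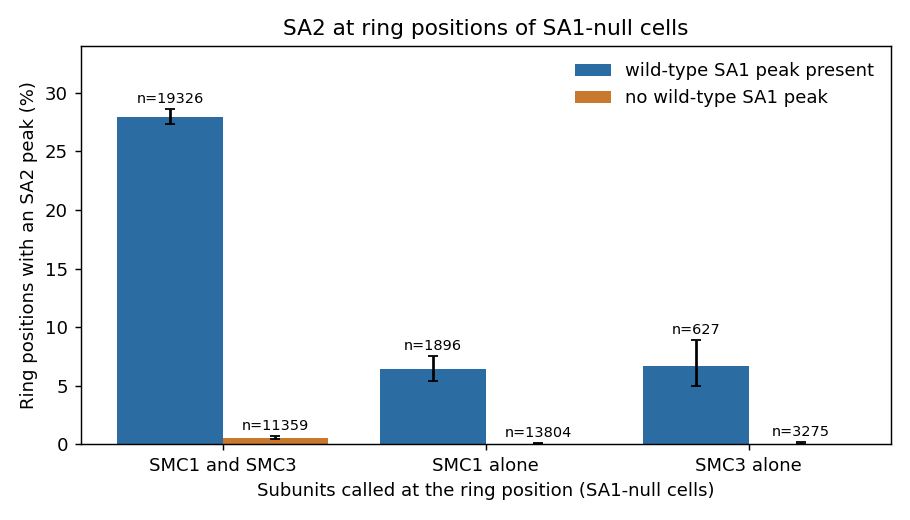
Share of SA1-null ring positions with an SA2 peak (percent, y axis) by the ring subunits called there (x axis), for positions with a wild-type SA1 peak (blue) and without (orange); bars are shares, error bars 95% Wilson intervals and n the number of positions. The share is 27.9% where both subunits and wild-type SA1 were present and below 1% in the 3 classes without wild-type SA1.

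The SA2 share rose with the number of wild-type lists that held the position. Among ring positions found in none of the 4 wild-type lists, 11 of 22468 had SA2 (0.0490%, interval 0.0273 to 0.0877%). With 1 list the share was 2.12% of 8243, with 2 lists 8.26% of 5981, with 3 lists 26.6% of 9513 and with all 4 lists 59.4% of 4082 (interval 57.9 to 60.9%). No interval of these classes overlapped another, but the intervals cover the counting of peaks alone. The classes also differed in ring subunits: both were called at 29.5% of positions in no wild-type list and 99.8% of those in all 4. Among positions with both subunits, the SA2 share was 0.0905% with no wild-type list and 59.5% with all 4. The kind of list mattered as well as the number. Where SA1 was the sole wild-type list, 4.14% of 3965 positions had SA2, against 0.233% of 3860 where SMC1 was the sole list and 0.295% of 339 where SMC3 was. Positions with wild-type SMC1 and SMC3 and neither SA protein had SA2 in 1.56% of 1601 cases, whereas adding wild-type SA1 gave 25.5% of 8740. A further step came with wild-type SA2 itself, which had been called with the same antibody. At ring positions with wild-type SA1, SA2 of SA1-null cells was present at 54.2% (interval 52.8 to 55.5%) of the 5156 that had a wild-type SA2 peak and at 16.6% (interval 16.0 to 17.1%) of the 16693 that had none. These groups contributed 2794 and 2767 positions with SA2.

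**Figure D2:**
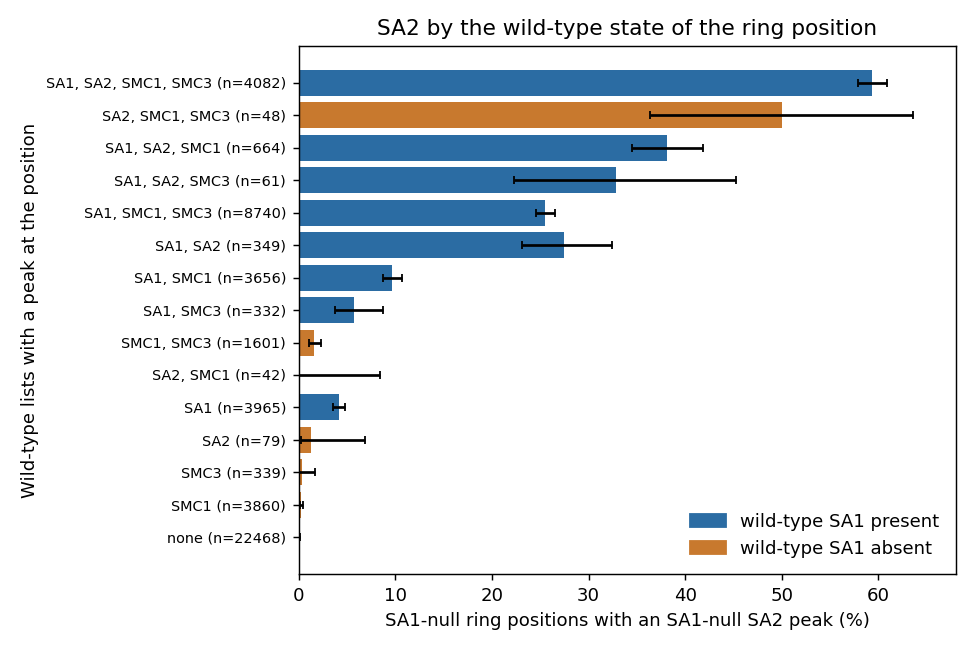
Share of SA1-null ring positions with an SA1-null SA2 peak (percent, x axis) by the set of wild-type lists with a peak at the position (y axis, with the number of positions); bars are shares and error bars 95% Wilson intervals, and a set held by a single position is left out. The share is 59.4% where all 4 wild-type lists had a peak and 0.0490% where none had.

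A small set of ring positions had SA2 without a wild-type SA1 peak. Of these 72, 60 (83.3%) had a wild-type ring peak, 26 (36.1%) a wild-type SA2 peak and 11 (15.3%) no wild-type peak of any kind. Both SMC subunits were called at 63 of the 72. Of all 28438 ring positions without wild-type SA1, 170 had wild-type SA2 and 11359 had both SMC subunits called. Among the same 28438, 22547 had no wild-type ring peak and 22468 no wild-type peak of any kind. The 48 ring positions that had wild-type SA2, SMC1 and SMC3 but no SA1 included 24 with SA2 (interval of the share 36.4 to 63.6%). Positions with all 4 wild-type peaks had an interval of 57.9 to 60.9%, inside that range. For positions with wild-type SA1, SMC1 and SMC3 and no wild-type SA2 it was 24.6 to 26.5%. Ring positions with both subunits called in SA1-null cells and no peak in any wild-type list numbered 6633. SA2 was called at 6 of them (0.0905%, interval 0.0415 to 0.197%), far below the 17.8% of all positions with both subunits. The wild-type lists were shorter, with 24000 SMC1 and 15564 SMC3 peaks against 47003 and 34802. Lack of a wild-type call therefore does not show that the ring was missing there in wild-type cells.

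Where SA2 and the ring met, the peak centres lay close together. Only overlapping peaks were measured and the nearest centre was kept, so short distances were partly built in. Merging of SMC1 and SMC3 peaks also widened the ring positions in which SA2 peaks could lie. How far the values go beyond what overlap alone would give was not tested. The centre of an SA2 peak was a median of 52.0 bp from the centre of the nearest overlapping SMC1 peak (quartiles 24.0 and 92.5 bp, 5601 peaks) and 51.0 bp from that of the nearest SMC3 peak (quartiles 24.0 and 88.5 bp, 5515 peaks). SMC1 and SMC3 centres were a median of 40.5 bp apart at SMC1 peaks with SA2, 43.5 bp apart at those with wild-type SA1 and no SA2, and 59.0 bp apart at those with neither. The wild-type SA1 peak at the same place was a median of 51.5 bp away from the SA2 centre (5753 peaks). The signed medians lay between -4.00 and -2.50 bp for the partners of SA2 along the genome's coordinates, which take no account of strand. Of the 5644 SA2 peaks on the ring, 4084 (72.4%) lay wholly inside a ring position and 5633 (99.8%) had at least 50% of their length inside. The smallest overlaps were 69, 94 and 109 bp, and the SA2 peaks just outside the ring were 4, 57 and 135 bp from it.

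**Figure D3:**
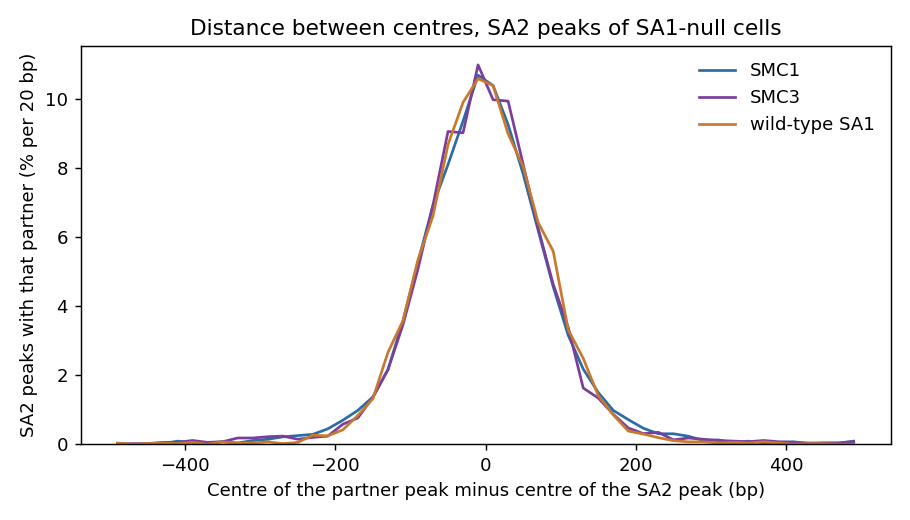
Distance from the centre of an SA1-null SA2 peak to the centre of the overlapping SMC1, SMC3 or wild-type SA1 peak (bp, x axis) against the share of SA2 peaks with that partner (percent per 20 bp, y axis); each line is 1 partner list. The lines coincide around 0, and 78.7% (SMC1), 80.3% (SMC3) and 80.8% (wild-type SA1) of centres are within 100 bp.

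The width of ring positions with and without SA2 differed by class. With both subunits called and wild-type SA1 present, the median width was 754 bp (quartiles 678 and 836) for the 5398 positions with SA2 and 690 bp (quartiles 609 and 775) for the 13928 without. Where SMC1 was called alone the order was the opposite, with 401 bp for the 129 positions with SA2 and 444 bp for the 15571 without, and so it was for SMC3 alone, with 488 bp for 43 and 522 bp for 3859. Over all classes, SMC1 peaks had a median of 629 bp with SA2, 548 bp with wild-type SA1 and no SA2, and 501 bp with neither, and SMC3 peaks had 729, 657 and 613 bp in that order. The distributions overlapped widely. In 10 width classes of equal number, the SA2 share at ring positions rose from 1.17% in the narrowest class (169 to 376 bp) to 26.3% in the ninth (789 to 933 bp) and was 15.2% in the widest (933 to 8989 bp). Within positions that had wild-type SA1 the share rose from 6.64 to 44.2% and was 32.9% in the widest class. Without wild-type SA1 it was at most 1.24% in any class, so in each class the share with wild-type SA1 was the higher of the pair. Among positions with both subunits and wild-type SA1, the rise went from 12.3% to 45.4% in the ninth class, with 31.7% (interval 29.7 to 33.8%) in the widest.

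**Figure D4:**
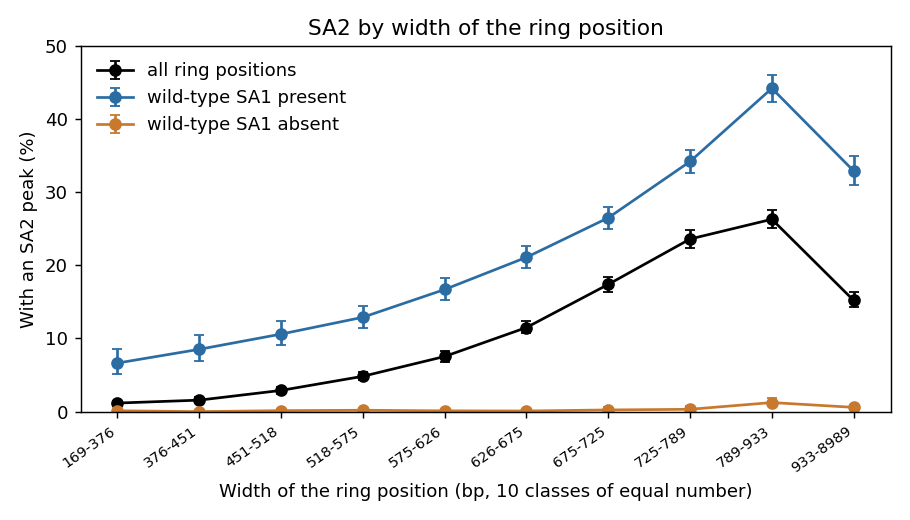
Share of SA1-null ring positions with an SA2 peak (percent, y axis) in 10 classes of ring width (bp, x axis), for all positions (black), those with wild-type SA1 (blue) and those without (orange); points are shares and error bars 95% Wilson intervals. The share with wild-type SA1 rises to 44.2% in the ninth class and is 32.9% in the widest, and the share without stays at or below 1.24%.

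Broad ring positions occurred with and without SA2. The widest of all, looked up after the ranking, was 8989 bp wide and had SA2. The 5 positions with both subunits and no SA2 that ranked highest by peak width were at chr11:86393483-86399512, at chr3:145307837-145313318, at chr14:47004282-47008877, at chr10:36857913-36861771 and at chr1:164146519-164152440. In the same order, the SMC3 peak measured 5874, 5482, 4488, 3859 and 3856 bp. Each had a wild-type SMC1 peak, those on chromosomes 14, 10 and 1 also had wild-type SA1, and none had SA2 in wild-type cells. For positions with SA2, SMC1 and SMC3 the ranking also weighed the SA2 width, and the 5 highest were at chr2:128523601-128525638, at chr2:37626658-37628105, at chr8:85386724-85388611, at chr9:57280821-57282138 and at chr5:64896289-64898008. The SA2 peaks there were 1177, 870, 776, 804 and 750 bp wide. These 5 positions all had wild-type SA1, SMC1 and SMC3 peaks and no wild-type SA2 peak. SA2 peaks stood singly at 5621 ring positions and in pairs at 12, each of which had both ring subunits in SA1-null and in wild-type cells and was 776 to 1708 bp wide. Of these 12, 10 had wild-type SA1 and 9 wild-type SA2. They include chr1:173408928-173409703 and chr13:63147177-63148884, with all 4 wild-type peaks, and chr12:71595593-71597055, with wild-type SA2, SMC1 and SMC3 but no SA1.

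Along chromosomes, SA2 was called sparsely among ring positions. Neighbouring ring positions were a median of 17.3 kb apart (quartiles 5.34 and 43.8 kb), and neighbouring ring positions with SA2 a median of 223 kb apart (quartiles 85.3 and 482 kb). After a ring position with SA2 the next ring position had SA2 in 14.6% of cases (interval 13.7 to 15.5%), against 10.8% (interval 10.5 to 11.1%) after a position without. When only positions with both subunits and wild-type SA1 were followed, the shares were 28.7% (interval 27.5 to 29.9%) and 27.6% (interval 26.9 to 28.4%), and their intervals overlapped. In windows of 1 Mb, the number of ring positions was set against the number with SA2, a part of it, so a positive relation was partly built in. The numbers went together (Pearson's r 0.694 and Spearman's rho 0.711 over 2318 windows, which share libraries and depth). The share with SA2 was nevertheless lower where the ring was dense. It was 18.5% in the fifth of windows with fewest ring positions (1 to 6) and 9.62% in the fifth with most (35 to 87). Wild-type SA1 was present at 63.8% and 39.2% of the ring positions in these windows. At ring positions with wild-type SA1 the SA2 share differed less, at 28.5% (interval 25.6 to 31.6%) and 24.2% (interval 23.3 to 25.1%).

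The windows with most SA2 held up to 11 ring positions with it. At chr7:73000001-74000000, 11 of 61 ring positions had SA2, and at chr11:62000001-63000000, 11 of 47 did. The next were chr11:69000001-70000000 with 10 of 57, chr2:167000001-168000000 with 9 of 76 and chr10:79000001-80000000 with 9 of 73. In contrast, no SA2 peak was called among 49 ring positions at chr3:21000001-22000000, 25 of which had both subunits and 7 wild-type SA1. In a window named beforehand, a count of 0 among 49 would allow a share of up to 6.12%, taken as 3 counts. This window was picked for its count of 0, so the limit does not hold for it. The other four windows without SA2 that ranked highest by ring positions lay on chromosomes 18, 13, 16 and 9, with 46, 38, 36 and 35 ring positions. All 5 had between 7 and 14 ring positions with wild-type SA1.

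The SA2 share of ring positions varied little between autosomes and was lower on chromosome X. The share of ring positions with SA2 ran from 10.2% (chromosome 17) to 12.4% (chromosome 1) over the 19 autosomes, with a mean of 11.3% ± 0.497 (SD). On X it was 4.87%, 49 of 1006 (interval 3.70 to 6.38%). Both subunits were called at 59.6% of the ring positions on X, against an autosome mean of 61.0%, and wild-type SA1 was present at 56.9%, against 43.2%. Among positions with both subunits and wild-type SA1, SA2 was called at 9.28% (interval 6.99 to 12.2%) on X and at 28.2% ± 1.39 (SD) on autosomes, where the lowest was 25.2%. The share of SA2 peaks that lay on the ring was 53.3% on X, 49 of 92 (interval 43.1 to 63.1%), and 84.6 to 93.5% on autosomes. Of the 43 SA2 peaks on X that missed the ring, 30 were shared with the input lists or with the SA1-null SA1 list. Without such peaks the share on the ring was 79.0% on X (49 of 62, interval 67.4 to 87.3%) and 90.3% on autosomes (interval 89.5 to 91.0%). The SA2 share of ring positions on X rests on 1 SA2 library, was 2.16% (8 of 370) in the widest 50% of each list, and its relation to the sex of the embryos was not tested.

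**Figure D5:**
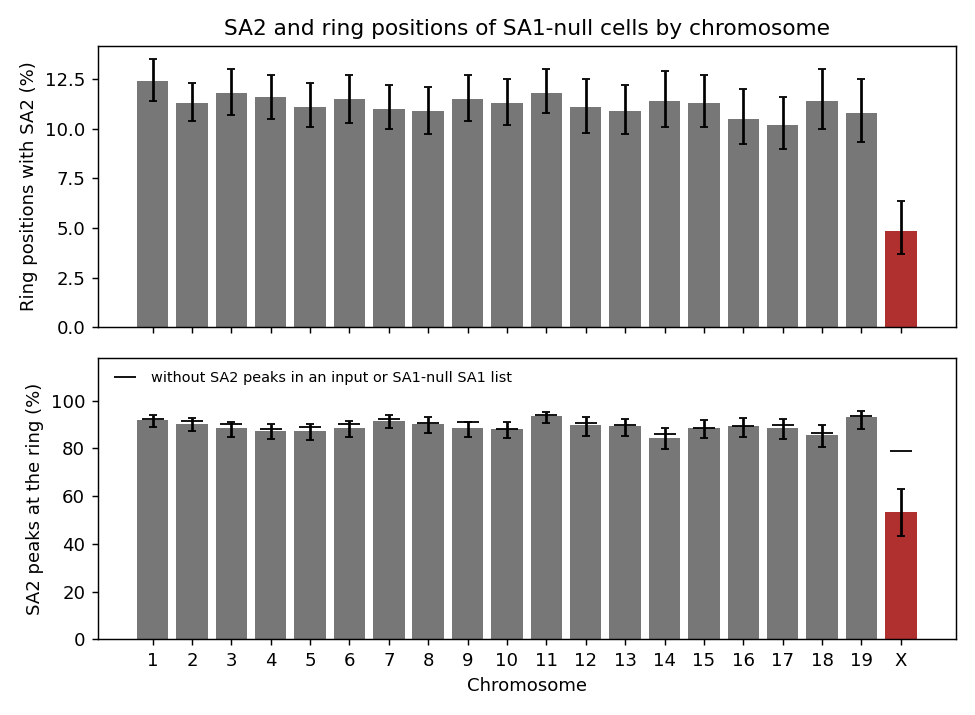
Share of ring positions with SA2 (top, percent) and of SA2 peaks on the ring (bottom, percent) for each chromosome (x axis) of SA1-null cells; bars are shares with 95% Wilson intervals, X is red, and dashes in the lower panel give the share without SA2 peaks that overlap an input or SA1-null SA1 interval. X is at 4.87% (top) and 53.3% (bottom), below each of the 19 autosomes, and its dash is at 79.0%.

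The 708 SA2 peaks away from the ring were of several kinds. An input list or the SA1-null SA1 list had an interval at 91 of them (12.9%, interval 10.6 to 15.5%), against 3 of the 5644 SA2 peaks on the ring (0.0532%). Of the others, 155 had a wild-type SA1 peak (21.9% of the 708) and 13 some other wild-type peak (1.84% of the 708). The remaining 449 (63.4% of the 708) had no peak in any other list. In all, 182 of the 708 had wild-type SA1, a share of 25.7%, against 98.8% of SA2 peaks with both ring subunits. A wild-type ring peak was present at 40 of the 708 (5.65%). The peaks in no other list were narrow, with a median of 438 bp, those with wild-type SA1 outside the input and SA1-null SA1 lists had 512 bp, and those in these lists had 662 bp. SA2 peaks on the ring had a median of 536 bp. The widest SA2 peaks off the ring lay at chr3:25446336-25451643, chr3:25441592-25446179 and chr3:25427182-25431296, at chr4:145036240-145040630 and at chr2:27354364-27358543. Each of these 5 overlapped an SA1-null SA1 peak, and those on chromosomes 4 and 2 also an input interval.

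Few of the 708 were near misses. Their distance to the nearest ring position had a median of 47.7 kb (quartiles 11.8 and 208 kb), and 23 (3.25%) lay within 1000 bp of one. By SA2 width, the share on the ring rose from 82.1% in the narrowest of 10 classes (237 to 378 bp) to 96.9% in the ninth (646 to 698 bp), with 78.7% in the class after the narrowest. It was 88.7% in the widest class, where 44 of the 72 peaks off the ring overlapped an input or SA1-null SA1 interval. The stated false discovery rate of the list, 10 (read as percent), is close in size to the 11.1% of SA2 peaks off the ring, but which peaks are false calls was not tested.

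Wild-type cells gave other values for the same comparison. There, 63.5% of 7741 SA2 peaks (interval 62.4 to 64.6%) lay on one of 24947 ring positions, and 19.7% of ring positions (interval 19.2 to 20.2%) had SA2. The ring lists were shorter in wild-type cells. The SA1-null SMC1 list took 2 libraries together, while each other list came from 1. With 1 list per antibody and genotype, the difference between genotypes was not tested.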

How the data were processed

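ChIP-seq peaks of mouse embryonic fibroblasts were analysed as the authors deposited them, in 10 lists of 3 columns (chromosome, start, end) without score or height. CASAVA 1.7 and mm9 are named in the submitters' processing notes; the sources used here give neither the aligner nor the peak caller. Per the names of the lists, SA2 was called against one input and SMC1 and SMC3 against the other, at a false discovery rate of 10 with no minimum fold, and the SMC1 list takes 2 replicates together. Depth is unknown, since the lists hold no read numbers.

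SMC1 and SMC3 peaks were merged into ring positions, and overlap was 1 bp or more. Starts were taken to count from 0 and are printed counting from 1. Shares carry 95% Wilson intervals that cover the counting of peaks alone. With 1 list per antibody and genotype, no test between conditions was made and no spread between replicates could be measured. Overlap functions were tested on simulated data, with 200 of 200 planted overlaps found, and gave the counts of bedtools 2.31.1 for 121 of 121 ordered pairs of lists. Python 3.11.15, numpy 2.4.6, pandas 2.3.3 and scipy 1.17.1 were used.

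Members and comparisons were chosen with earlier results of these data known. Named are the 5 positions of each kind that ranked highest by the mean percentile of the widths of their SA2, SMC1 and SMC3 peaks. Windows of 1 Mb named are the 5 with most ring positions with SA2 and the 5 with most ring positions and no SA2. Of the ring positions with most SA2 peaks, some examples are printed. Genes and sequence at the positions were not analysed here. Alternatives were an overlap of 50% of the shorter interval, merging within 1000 bp, other definitions of the ring, removal of intervals shared with an input or SA1-null SA1 list, the widest 50% of each list, lists of equal length and removal of chromosome X.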

Additional observations from a re-analysis of the deposited data

Results flagged for a closer look

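The input lists and the SA1 list of SA1-null cells, taken here as background, overlapped some SA2 peaks away from the ring. The overlaps are shown because these lists are outside the antibody comparison. Any overlap above 3 peaks was listed. The input that had served for SA2 overlapped 38 of the 708 such peaks (5.37%), the other input 40 (5.65%) and the SA1-null SA1 list 55 (7.77%). Some peaks were in more than 1 of these lists, and 91 were in at least 1 (12.9%), against 3 of the 5644 SA2 peaks on the ring (0.0532%). Of the 91, 45 also overlapped a peak of a wild-type cohesin list.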

How the results depend on the processing

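No share or count changed on the overlap of 50%, on removal of chromosome X or, except for the share of SA2 peaks on the ring (90.1%), on removal of intervals shared with an input or SA1-null SA1 list by more than its counting interval (counts: 1.5 times). The share on X has no value without X. With the SMC1 and SMC3 lists shortened by width to the SA2 number, 29.6% of SA2 peaks lay on the ring and 20.2% of the 9264 ring positions had SA2; fewer ring peaks leave fewer partners. In the widest 50% of each list, 82.7% of SA2 peaks lay on the ring and SA2 was at 9.61% of ring positions. SA2 was at 14.8% of those with both subunits, 3.84% with SMC1 alone and 6.80% with SMC3 alone. It was at 23.2% with wild-type SA1, 2.34% without and 2.16% on X. Wild-type SA1 was at 84.2% of ring positions with SA2, and the SMC3 centre distance was 48.0 bp. The classes with 1 subunit or without wild-type SA1 then include positions whose other peak was trimmed away. With the SMC3 list as the ring, 86.8% of SA2 peaks lay on it and 15.8% of its positions had SA2; with positions called by both, 86.1% and 17.8%; with the SMC1 list, the latter was 11.9%. Merging within 1000 bp gave 12.1% of ring positions with SA2, 18.5% with both subunits and 26.3% with wild-type SA1. With the wild-type SA1 list shortened to the SA2 number, an alternative chosen after seeing the data, SA2 was at 44.7% of ring positions with wild-type SA1 and 6.65% without, and wild-type SA1 at 47.7% of ring positions with SA2. Leaving out an SMC1 replicate was not run, because both share 1 list, and ranking by score was replaced by width. No paired analysis was possible because each antibody and genotype has 1 list, which leaves no pairs to compare.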
